A study of Mus musculus with 2 samples.

Results

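The genes of glycolysis, of the pentose phosphate pathway and of the adjoining transport and pyruvate steps were followed in leukemic mouse promyelocytes treated with retinoic acid. They are 32 gene symbols chosen by name from a list of enzymes and transporters, and they matched 33 of the 32285 gene rows of each deposited matrix. Aldoa has 2 rows, of which the second held 6 counts in each library, and its rows were summed. By role, 18 genes are glycolytic enzymes including lactate dehydrogenase, 4 are glucose or monocarboxylate transporters, 7 are pentose phosphate enzymes, and 3 act where pyruvate enters the mitochondrion.

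Single-cell RNA was measured in late promyelocytes from leukemic bone marrow of mice whose cells express PLZF/RARA, a fusion of the zinc finger protein PLZF with the retinoic acid receptor alpha that makes acute promyelocytic leukemia respond poorly to retinoic acid. Cells were sorted as Cd45.2+, C-Kit+, Gr1+, Cd34- and FcγR+ and captured with 10x Genomics 3′ droplet chemistry, with 6000 cells aimed for in each. One group received 0.8 to 1 mg of retinoic acid by intraperitoneal injection, and the other received its carrier, corn oil with 10% DMSO, by the same route, each for 7 days. The fusion was present in both groups, so neither is a leukemia-free control, and the sources used here give no promoter for the fusion, no mouse strain or age, and no number of mice per library beyond a cohort of 3 to 5. With a single library for either treatment nothing was replicated, and what separates the mice, sorts and preparations cannot be told apart from the treatment.

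Glycolysis splits glucose into pyruvate in the cytosol and yields ATP, and lactate dehydrogenase turns pyruvate into lactate where oxidation in mitochondria is not used. The pentose phosphate pathway branches off at glucose 6-phosphate, makes NADPH and ribose 5-phosphate, and returns sugar phosphates to glycolysis. Neutrophils are known for their reliance on glycolysis and for the use of NADPH by their oxidase, and they make their secondary granule proteins after the promyelocyte stage.

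The cells kept were 5476 under vehicle (99107718 UMIs) and 7140 under retinoic acid (110088247 UMIs), where a UMI (unique molecular identifier) marks 1 captured RNA molecule. The 32 genes made up 1.03% of all vehicle UMIs and 0.919% under retinoic acid. The markers of the sorted cell type were not alike in both libraries: with levels as counts per 1000000 UMIs (CPM), 7 of 8 promyelocyte markers reached 20 in the vehicle and 6 of 8 in the retinoic acid library, where Mpo (myeloperoxidase) was at 0.50 against 311 CPM. The sum of the 8 promyelocyte markers was 8364 CPM for vehicle and 18945 CPM for retinoic acid. Markers within it went in opposite directions, since Elane was at 62.8 and 7663 CPM, so the sum does not stand for each marker. Summed maturing neutrophil markers were at 1620 and 61544 CPM, with all 7 detected in both libraries. Mast or basophil markers summed to 736 and 66.4 CPM with Fcer1a at 0 in both libraries, eosinophil markers to 105 and 27.9, and monocyte or macrophage markers to 203 and 297. Megakaryocyte markers summed to 29.1 and 1.07 CPM, and erythroid, B cell, T cell and dendritic markers each summed to under 5 CPM in both libraries. The part of these differences in the results below was not tested, except where a value without such cells is given. Kept cells of both libraries shared 11 barcodes.

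Upstream sequences of 4 genes are shown because these genes lay on opposite sides of the comparison or differed in the motifs they hold. Each is the 250 bases before a start site that RefSeq lists on GRCm38.p6, written 5′ to 3′ on the strand of the gene. Capitals mark ACGTG on either strand (CACGT when read on the other), the core that hypoxia-inducible factors can recognise, and AGGTCA on either strand (TGACCT), the hexamer recognised by nuclear receptors including those for retinoic acid. CACGTG, the E-box that Myc can recognise, holds ACGTG on both strands, so each CACGTG counts as 2 ACGTG matches. The genes were chosen after their values were seen.
Ldha: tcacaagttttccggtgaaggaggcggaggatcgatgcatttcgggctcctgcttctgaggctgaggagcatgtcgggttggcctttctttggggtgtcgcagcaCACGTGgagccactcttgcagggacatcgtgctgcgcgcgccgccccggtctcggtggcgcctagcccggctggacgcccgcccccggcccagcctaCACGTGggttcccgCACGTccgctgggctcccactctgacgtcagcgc
Pgk1: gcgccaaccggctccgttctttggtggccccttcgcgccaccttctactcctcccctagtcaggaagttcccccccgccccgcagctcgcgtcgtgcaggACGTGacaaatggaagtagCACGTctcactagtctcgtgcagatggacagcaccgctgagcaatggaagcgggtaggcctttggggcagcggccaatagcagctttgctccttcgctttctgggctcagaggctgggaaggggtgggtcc
Slc16a1: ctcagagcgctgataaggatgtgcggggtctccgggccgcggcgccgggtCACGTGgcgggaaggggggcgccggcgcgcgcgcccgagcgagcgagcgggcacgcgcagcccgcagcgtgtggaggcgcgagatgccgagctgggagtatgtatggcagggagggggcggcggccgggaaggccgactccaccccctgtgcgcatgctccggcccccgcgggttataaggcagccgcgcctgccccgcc
Gpi1: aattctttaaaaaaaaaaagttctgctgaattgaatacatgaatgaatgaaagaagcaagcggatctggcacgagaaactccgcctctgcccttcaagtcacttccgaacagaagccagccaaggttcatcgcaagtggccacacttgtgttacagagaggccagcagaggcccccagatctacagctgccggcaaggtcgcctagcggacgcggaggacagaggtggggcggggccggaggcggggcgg

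The Ldha window (chr7:46845554-46845803, plus strand) held 5 ACGTG matches, including 2 CACGTG, and lies inside the annotated Ldha gene but in no annotated exon. Another Ldha start (chr7:46846832-46847081) held none. The Pgk1 window (chrX:106186850-106187099, plus strand) held 2 ACGTG matches without a CACGTG, and the Slc16a1 window (chr3:104638414-104638663, plus strand) held 1 CACGTG. The Gpi1 window (chr7:34230337-34230586, minus strand) held none of these letters and overlaps an exon of the annotated gene Gm12762. The G6pdx window (chrX:74428881-74429130, minus strand) held none either and is not printed, since it lies in an annotated untranslated region. The table held 44 windows for 31 of the 32 genes, with none for Slc2a3. ACGTG stood in 14 of the 44 windows (31.8%), from 12 genes, against 16.6% of all 32851 windows of that length. CACGTG stood in 3 windows (6.82% against 6.02% of all), and AGGTCA in 7 (15.9% against 14.0%). Some genes gave several windows, and overlapping Aldoa windows hold the same ACGTG and AGGTCA matches, which are thus counted more than once. The windows of all genes were not matched for base composition. A match is a string of letters and not a shown binding site, and its absence says only that these letters are not in the window.

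Levels are given as CPM, the counts of a gene summed over a library's kept cells, divided by the library's total and multiplied by 1000000. Because each captured 3′ end is counted once, CPM does not grow with transcript length, but genes can be captured with different efficiency, so an order of genes by CPM is an order of captured molecules. Ratios divide the retinoic acid value by the vehicle value, with 0.5 counts added to both sums, and are given as log2. The 95% intervals beside levels (exact Poisson), ratios (exact binomial) and shares (Clopper-Pearson, with Newcombe's interval for differences) cover counting error only. Sums over a library cannot tell fewer cells of a kind from less RNA per cell.

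Of the 32 genes, 28 had at least 20 CPM in either library, and among these 9 were higher and 19 lower under retinoic acid. Their median log2 ratio was −0.16, beside 0.01 over all 5548 genes at that level, whose quartiles were −0.25 and 0.24. At least 1.5-fold higher were 3 genes, Slc2a3, G6pdx and Rpe, where 8.15% of all genes passed that fold upward. Rpe fell short of it without cells holding a Cpa3 UMI (0.50), a setting chosen after seeing the data, and Gpi1 passed it with TMM scaling (0.59). At least 1.5-fold lower were 5 genes, Pfkl, Pfkp, Aldoc, Gapdh and Ldha, where 10.1% of all genes passed it downward. At 2-fold, Slc2a3 was the 1 gene higher (3.03% of all genes) and Aldoc the 1 gene lower (5.05%). TMM scaling, which discounts the few very abundant genes of either library, left 3 genes at least 1.5-fold lower, since Pfkp and Ldha lay close to that fold.

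The pathways differed in direction. Of 14 measured glycolysis genes 12 were lower in the retinoic acid library, with a median log2 ratio of −0.40, while of 7 pentose phosphate genes 5 were higher, with a median of 0.37. Summed glycolysis UMIs went from 7579 CPM (7562 to 7597) in the vehicle to 6238 CPM (6223 to 6253) in the retinoic acid library, a log2 ratio of −0.28 (−0.29 to −0.28). Summed pentose phosphate UMIs were at 2393 CPM (2384 to 2403) and 2640 CPM (2630 to 2649), which gives a log2 ratio of 0.14 (0.13 to 0.15). Summed transport UMIs were at 138 and 153 CPM (log2 ratio 0.15), and summed pyruvate entry UMIs at 183 and 156 CPM (−0.23). Without cells that held a UMI of the mast cell gene Cpa3, a setting chosen after seeing the data, the log2 ratios were −0.29 for glycolysis and 0.0998 for the pentose phosphate genes. Nearly all Cpa3 UMIs came from vehicle cells, 56477 beside 11 under retinoic acid. That removal could thus take at most 11 treated cells, and the number of vehicle cells it took is not given.

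**Figure D1:**
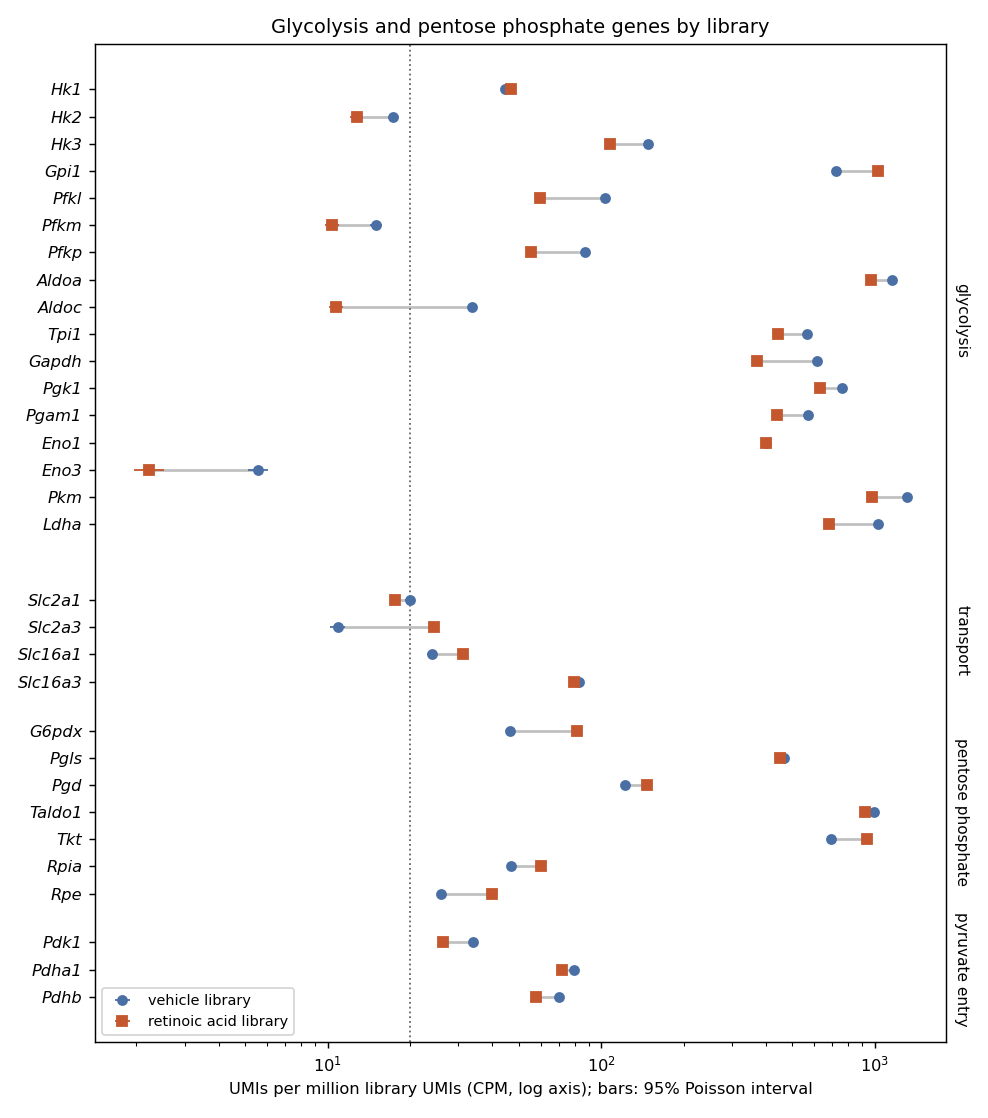
CPM of each gene in the vehicle library (blue circles) and the retinoic acid library (orange squares) on a log axis, with 95% Poisson intervals, in the order of the pathways. The dotted line marks 20 CPM. Eno1 is covered because its levels were 401 and 400.1 CPM, and Ldhb is not drawn because it held 4 and 0 counts.

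Among the enzymes that trap glucose, the hexokinases Hk1, Hk2 and Hk3 phosphorylate it to glucose 6-phosphate. Hk3 was at 149 CPM under vehicle and 108 CPM under retinoic acid, a log2 ratio of −0.47 (−0.50 to −0.43). Hk1 was at 44.7 and 46.8 CPM (log2 ratio 0.07, 0.01 to 0.13), so the isoenzyme with most UMIs was lower and the constitutive one nearly level. Hk2 stayed under the limit in both libraries, at 17.4 and 12.8 CPM.

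Gpi1, which converts glucose 6-phosphate to fructose 6-phosphate at the branch point with the pentose phosphate pathway (chromosome 7, 34201330 to 34230336), stood apart from the other glycolytic enzymes. It went from 71376 counts or 720.2 CPM to 112945 counts or 1026 CPM, a log2 ratio of 0.51 (0.50 to 0.52). Hk1 was the only other glycolysis gene at 20 CPM with a higher value in the retinoic acid library. The next step, phosphofructokinase, commits the sugar to glycolysis and was lower in both of its abundant forms. Pfkl, the liver-type subunit (chromosome 10, 77986947 to 78010083), was at 103 and 59.8 CPM (log2 ratio −0.78, −0.83 to −0.74). Pfkp, the platelet-type subunit, was at 86.9 and 55.3 CPM (−0.65, −0.70 to −0.60), and the muscle-type subunit Pfkm at 15.1 and 10.4 CPM.

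Aldolase cleaves fructose 1,6-bisphosphate. Aldoa was at 1158 and 967 CPM, a log2 ratio of −0.26 (−0.27 to −0.25). Aldoc, a minor form here (chromosome 11, 78322968 to 78327781), was at 33.8 and 10.8 CPM, 3.14-fold lower in the retinoic acid library (log2 ratio −1.65, −1.75 to −1.55). It was the gene of the set with the largest ratio in either direction at 20 CPM. Triose phosphate isomerase, Tpi1, was at 567 and 444 CPM (−0.35).

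The enzymes of the lower part of glycolysis, which yields ATP, were lower by unequal amounts. Gapdh, which oxidises glyceraldehyde 3-phosphate and is often used as a reference gene (chromosome 6, 125161715 to 125166467), went from 614 CPM to 372 CPM, a log2 ratio of −0.72 (−0.74 to −0.70). Pgk1 and Pgam1, the kinase and mutase that follow it, were at 759 and 630.0 CPM (−0.27) and at 572 and 438 CPM (−0.38). Eno1, the enolase, was level at 401 and 400.1 CPM (0.00, −0.02 to 0.01), and its sign changed with TMM scaling. Eno1 has a near-identical copy, Eno1b, at 5.62 and 5.46 CPM, and reads of the pair may have been split, so both values are uncertain. Pkm, the pyruvate kinase and the glycolysis gene with most UMIs in the vehicle, was at 1306 and 978 CPM (−0.42, −0.43 to −0.41).

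Ldha, which reduces pyruvate to lactate (chromosome 7, 46841475 to 46855627), was at 101855 counts or 1028 CPM in the vehicle and 74568 counts or 677 CPM in the retinoic acid library, a log2 ratio of −0.60 (−0.62 to −0.59). Its partner Ldhb held 4 counts and 0 counts. A count of 0 allows up to 3 counts, or 0.0273 CPM, and 4 counts are close to that limit, so no ratio is given. The remaining muscle form, Eno3, was at 5.56 and 2.23 CPM.

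Transporters split within each family. Slc2a3, the glucose transporter GLUT3 (chromosome 6, 122727809 to 122801640), was at 1078 counts or 10.9 CPM in the vehicle and 2697 counts or 24.5 CPM in the retinoic acid library, 2.25-fold higher (log2 ratio 1.17, 1.07 to 1.27). Slc2a1, the glucose transporter GLUT1, was at 20.01 and 17.6 CPM (−0.18, −0.27 to −0.09). Slc16a1, the monocarboxylate transporter MCT1, was at 24.0 and 31.1 CPM (0.37, 0.30 to 0.45). Without cells holding a Cpa3 UMI its ratio was 0.12, and by phase it was 0.61 (0.44 to 0.78) in G1, 0.08 (−0.08 to 0.24) in S and 0.12 (0.02 to 0.23) in G2/M. Slc16a3, the lactate exporter MCT4, was at 83.0 and 79.4 CPM (−0.06, −0.11 to −0.02). The sign of Slc16a3 changed with TMM scaling.

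In the oxidative arm of the pentose phosphate pathway, which makes NADPH, both dehydrogenases were higher. G6pdx, the rate-limiting glucose 6-phosphate dehydrogenase (chromosome X, 74409483 to 74429194), went from 4612 counts or 46.5 CPM to 8966 counts or 81.4 CPM, a log2 ratio of 0.81 (0.76 to 0.86). Pgd, 6-phosphogluconate dehydrogenase, was at 122 and 148 CPM (0.27, 0.24 to 0.31). Without cells holding a Cpa3 UMI the ratios were smaller, 0.60 for G6pdx and 0.17 for Pgd. Pgls, the lactonase between them, was at 466 and 451 CPM (−0.05, −0.07 to −0.03), a difference whose sign changed with TMM scaling and with granule genes left out of the totals.

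The non-oxidative arm interconverts sugar phosphates. Tkt, transketolase, was at 691 and 938 CPM (log2 ratio 0.44, 0.43 to 0.45), whereas Taldo1, transaldolase, was at 995 and 922 CPM (−0.11, −0.12 to −0.10). The isomerase Rpia was at 46.8 and 60.5 CPM (0.37, 0.32 to 0.42) and the epimerase Rpe at 26.0 and 40.0 CPM (0.62, 0.55 to 0.69). Without cells holding a Cpa3 UMI the ratios were 0.34 for Tkt, 0.30 for Rpia and 0.50 for Rpe. So 5 of the 7 enzymes were higher, and the 2 lower ones differed by at most 0.11 on the log2 scale.

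The 3 genes at the entry of pyruvate into the mitochondrion were lower. Pdk1, a kinase that inactivates pyruvate dehydrogenase, was at 34.0 and 26.4 CPM (−0.37, −0.44 to −0.29). The pyruvate dehydrogenase subunits were at 79.4 and 71.9 CPM for Pdha1 (−0.14) and at 69.9 and 57.7 CPM for Pdhb (−0.28).

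**Figure D2:**
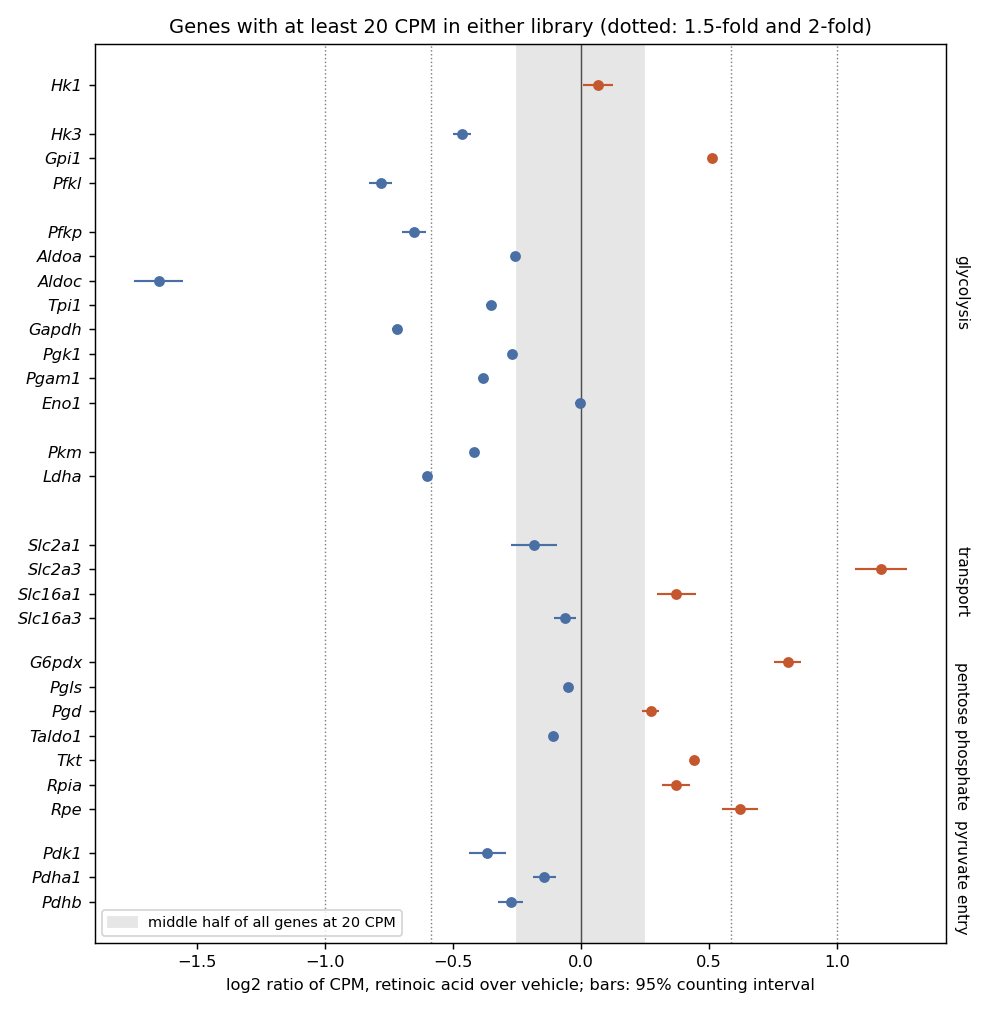
Log2 ratio of CPM, retinoic acid over vehicle, for the 28 genes that reached 20 CPM in a library, with 95% counting intervals; rows left blank are genes under that level. The grey band runs from the lower to the upper quartile of all 5548 genes, −0.25 to 0.24, and dotted lines mark 1.5-fold and 2-fold. Most glycolysis genes lie left of the band, and Gpi1, Slc2a3, Slc16a1, G6pdx, Pgd, Tkt, Rpia and Rpe lie right of it.

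The libraries differed in their cell cycle phases, which were called from S and G2/M gene lists in cells thinned to 5000 UMIs. G1 cells made up 53.7% of the vehicle and 29.9% of the retinoic acid library, S cells 12.8% and 27.1%, and G2/M cells 33.5% and 43.0%. Among the 28 genes, 27 had the same sign in all 3 phases, and Eno1 did not. Some of these signs are uncertain, since intervals spanned both signs for Hk1 (S and G2/M), Slc16a1 and Pgls (S), and Slc16a3 and Pdhb (G1). The share of all genes with the same sign in every phase is not given. The log2 ratio of summed glycolysis UMIs was −0.27 in G1, −0.24 in S and −0.29 in G2/M, and that of summed pentose phosphate UMIs was 0.19, 0.13 and 0.13. For G6pdx the ratio was 1.10 (1.00 to 1.19) in G1, 0.68 (0.56 to 0.81) in S and 0.64 (0.56 to 0.71) in G2/M. Aldoc differed between phases within a library, with 53.6, 28.1 and 16.8 CPM in vehicle G1, S and G2/M cells, and it was at 16.0, 11.5 and 8.02 CPM in the same phases of the retinoic acid library. The summed transport genes had log2 ratios of 0.37 in G1, −0.08 in S and 0.04 in G2/M.

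Isoenzyme choice was read as the share of a family's UMIs that each of its genes took, which does not depend on the library total. It differed most in the glucose transporters. Slc2a3 held 35.2% (33.5 to 36.9) of 3061 UMIs of the pair in the vehicle and 58.2% (56.7 to 59.6) of 4637 in the retinoic acid library, a difference of 22.9 percentage points (20.7 to 25.1), so the more frequent of the 2 transporters was Slc2a1 in one library and Slc2a3 in the other. Among hexokinases Hk3 held 70.6% (69.9 to 71.2) and 64.4% (63.7 to 65.1), and Hk1 held 21.2% (20.6 to 21.7) and 28.0% (27.3 to 28.6). Slc16a1 held 22.5% (21.7 to 23.3) and 28.2% (27.4 to 29.0) of the monocarboxylate transporter pair.

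In the other 4 families the leading form was the same in both libraries. Pfkl held 50.2% and 47.7% of phosphofructokinase UMIs, Pfkp 42.4% and 44.1%, and Pfkm 7.36% and 8.26%. Aldoa held 97.2% and 98.9% of aldolase UMIs, a difference of 1.73 percentage points (1.62 to 1.85) that is the loss of share of Aldoc. Eno1 held 98.6% and 99.4% against Eno3. Ldha held all but 4 of 101859 lactate dehydrogenase UMIs in the vehicle and all 74568 in the retinoic acid library.

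**Figure D3:**
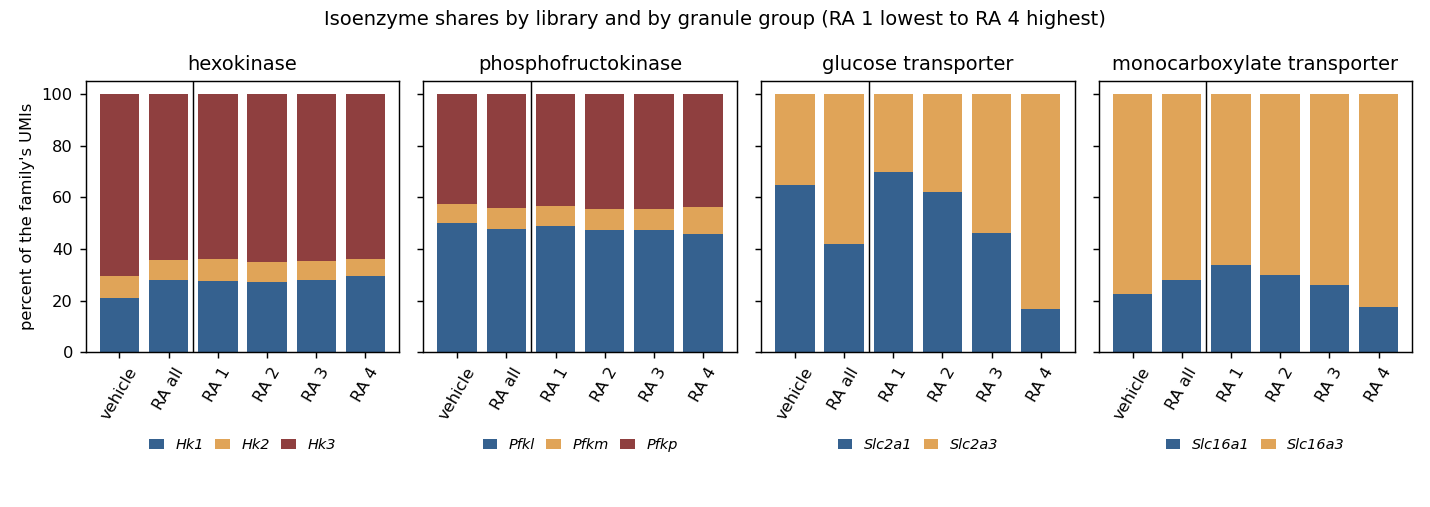
Percent of a family's UMIs taken by each isoenzyme in the vehicle library, in the whole retinoic acid library (RA all) and in its 4 groups of cells by granule share (RA 1 lowest, RA 4 highest). The glucose transporters trade places, with Slc2a3 at 30.1% in RA 1 and 83.1% in RA 4, while hexokinase and phosphofructokinase shares differ by less than 3 percentage points between those groups.

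To follow maturation inside the retinoic acid library, its 6659 cells with at least 5000 UMIs were ranked by granule share, the percent of a cell's thinned UMIs in 14 genes of the later neutrophil granules and maturation, among them Camp, Ngp and Ltf. They were divided into 4 groups of 1665, 1665, 1665 and 1664 cells, with median shares of 0.52%, 1.36%, 3.78% and 12.54%. Levels per group are CPM of totals that leave the 14 genes out, since those genes alone would dilute all others. The groups also differed in depth, with median UMIs of 17980, 16913, 15491 and 10736, and in phase, with 25.4%, 24.9%, 22.5% and 46.7% of cells in G1. Eosinophil markers summed to 67.4, 2.97, 3.21 and 4.18 CPM going up the groups, mast or basophil markers to 85.4, 84.8, 63.3 and 22.2, and monocyte or macrophage markers to 191, 286, 411 and 397, and their part in the values below was not tested beyond the removal of cells with eosinophil granule RNA.

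Between the highest and the lowest granule group, 26 of the 32 genes had at least 20 CPM in either group, and their median log2 ratio was 0.21. Over all 5637 genes at that level the median was −0.18, so a typical gene took a smaller share of the totals in the highest group. A ratio is read against that shift. The totals still held S100a8 and S100a9, and the median of the set was 0.35 with these added to the granule genes. The part of abundant genes in the shift was not tested. At least 1.5-fold higher were Slc2a3, G6pdx and Gpi1, 3 genes where 11.2% of all genes passed that fold. At least 1.5-fold lower were Slc16a1, Pdk1 and Pdha1, 3 genes where 18.0% of all genes passed it. At 2-fold, Slc2a3 and G6pdx were higher (5.23% of all genes) and Slc16a1 and Pdk1 lower (4.97%). Among G1 cells alone 6 genes passed 1.5-fold upward, where 14.7% of all genes did, and 5 downward, where 32.7% did. With the granule genes kept in the totals the median over the set was 0.023 beside −0.37 over all genes, and 3 genes were higher (7.49% of all genes) and 5 lower (31.6%), with Pfkl and Ldha added. Adding S100a8 and S100a9 to the granule genes gave 6 higher, with Pkm, Pgd and Rpe added, and left 2 lower, without Pdha1. Without cells that held a UMI of the eosinophil genes Prg2 or Epx, a setting chosen after seeing the data, 3 were higher and 3 lower. No all-gene share is given for the S100 and the eosinophil settings. From group to group, 13 of the 26 genes had a higher level at every step, 7 a lower level at every step and 6 both. The shares of all genes with such courses are not given, so these counts are not read as a trait of the set. The groups are cells of 1 library, so these are differences between cells and not between treated animals.

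Slc2a3 had the steepest course. It was at 8.53 CPM (268 counts) in the lowest group, 11.2 in the second, 20.1 in the third and 82.7 CPM (1404 counts) in the highest, a log2 ratio of 3.28 (3.09 to 3.47) between the ends. The vehicle library was at 10.9 CPM, so the lowest group lay below it, the next one beside it and the upper 2 above it. Within G1 cells Slc2a3 was at 7.53 CPM in the lowest and 134 CPM in the highest group, within S cells at 7.99 and 51.7, and within G2/M cells at 9.11 and 54.2, so the order held in each phase. In the highest of 8 groups, with a median share of 16.48%, it reached 128 CPM.

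G6pdx was at 61.0, 72.8, 88.6 and 139 CPM from the first to the last group (log2 ratio 1.19, 1.10 to 1.28), against 46.6 CPM in the vehicle. Gpi1 was at 811, 1009, 1179 and 1462 CPM (0.85, 0.82 to 0.88), against 721 CPM in the vehicle. Every retinoic acid group thus lay above the vehicle for these 2 enzymes of glucose 6-phosphate. In the lowest group, however, the log2 ratio of Gpi1 to the vehicle (0.17) lay between the all-gene quartiles of −0.13 and 0.31. That of G6pdx (0.39) lay above them. In G1 cells alone G6pdx was at 60.3 and 151 CPM in the lowest and highest groups, and Gpi1 at 866 and 1589 CPM.

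In the highest granule group 10 of the 26 genes were lower, those with the largest ratios being a transporter, a kinase and a subunit of pyruvate dehydrogenase, and Ldha. Slc16a1 was at 39.5, 34.7, 30.8 and 18.7 CPM (log2 ratio −1.08, −1.26 to −0.90) against 24.1 CPM in the vehicle, so the lowest group lay above the vehicle library and the highest below it. Ldha was at 787, 739, 687 and 543 CPM (−0.54, −0.57 to −0.50), all below the 1029.6 CPM of the vehicle. Pdk1 was at 34.4, 29.7, 25.4 and 14.4 CPM (−1.25, −1.46 to −1.05), and its lowest group lay beside the 34.1 CPM of the vehicle (log2 ratio 0.01).

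Pdha1 went from 88.6 to 55.9 CPM between the lowest and highest groups (−0.66, −0.77 to −0.56) and Pdhb from 64.7 to 49.6 CPM (−0.38). Both phosphofructokinases were lower as well, Pfkl at 67.6 and 48.9 CPM (−0.47, −0.59 to −0.35) and Pfkp at 60.1 and 46.7 CPM (−0.36, −0.48 to −0.24). Tpi1 was at 468 and 408 CPM (−0.20), Pgls at 474 and 416 CPM (−0.19), and Slc2a1 and Eno1 were at 19.8 and 16.8 CPM and at 424 and 392 CPM. Against the all-gene median of −0.18, Tpi1 and Pgls lay at the level of a typical gene and Eno1 (−0.11) above it. Of these, Slc2a1 stayed under 20 CPM in both groups, and the sign of Eno1 changed when S100a8 and S100a9 were added to the granule genes.

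Other enzymes of glycolysis were higher with granule share, among them Aldoa, Pkm, Pgam1 and Gapdh, each by less than 1.5-fold, unlike Tpi1, Eno1 and Ldha above. Aldoa was at 899.8 CPM in the lowest and 1194 CPM in the highest group (0.41, 0.38 to 0.43), against 1159.7 CPM in the vehicle. Pkm was at 901 and 1187 CPM (0.40, 0.37 to 0.42), against 1308 CPM, and Pgam1 at 426 and 559 CPM (0.39, 0.35 to 0.43), against 573 CPM. Gapdh was at 366 and 436 CPM (0.25, 0.21 to 0.29), against 615 CPM in the vehicle, which no group reached. Hk1 (45.9 and 57.9 CPM, 0.34), Hk3 (106 and 126 CPM, 0.25) and Pgk1 (616 and 673 CPM, 0.13) were higher too, and the sign of Pgk1 changed with the granule genes kept in the totals.

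In the pentose phosphate pathway, Pgd was at 136 and 191 CPM in the lowest and highest groups (0.49, 0.42 to 0.56), Rpe at 37.2 and 51.2 CPM (0.46, 0.33 to 0.59), Taldo1 at 872 and 1071 CPM (0.30, 0.27 to 0.33) and Tkt at 902 and 1079 CPM (0.26, 0.23 to 0.29). Rpia, at 58.8 and 64.3 CPM (0.13), and Slc16a3, at 78.0 and 87.6 CPM (0.17), were higher by small amounts, and both changed sign with the granule genes kept in the totals, Rpia also with 8 groups (−0.12). The set under 20 CPM in both groups was Hk2, Pfkm, Aldoc, Eno3, Ldhb and Slc2a1. Of these Aldoc was at 9.77 and 15.6 CPM.

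Summed over pathways, glycolysis was at 6016, 6429, 6689 and 7175 CPM in the groups of rising share (log2 ratio 0.25, 0.24 to 0.26), and the vehicle was at 7593 CPM. The pentose phosphate genes were at 2541, 2729, 2834 and 3012 CPM (0.25, 0.23 to 0.26), and the vehicle was at 2398 CPM. Summed glycolysis thus stayed below the vehicle in every group, while summed pentose phosphate UMIs were above it in every group. For the lowest group that pentose phosphate log2 ratio was 0.08, under the all-gene median of 0.11 for the same comparison. Keeping the granule genes in the totals left log2 ratios of 0.07 and 0.06 between the ends. Transport was at 146, 145, 155 and 206 CPM, and pyruvate entry at 188, 172, 149 and 120 CPM.

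**Figure D4:**
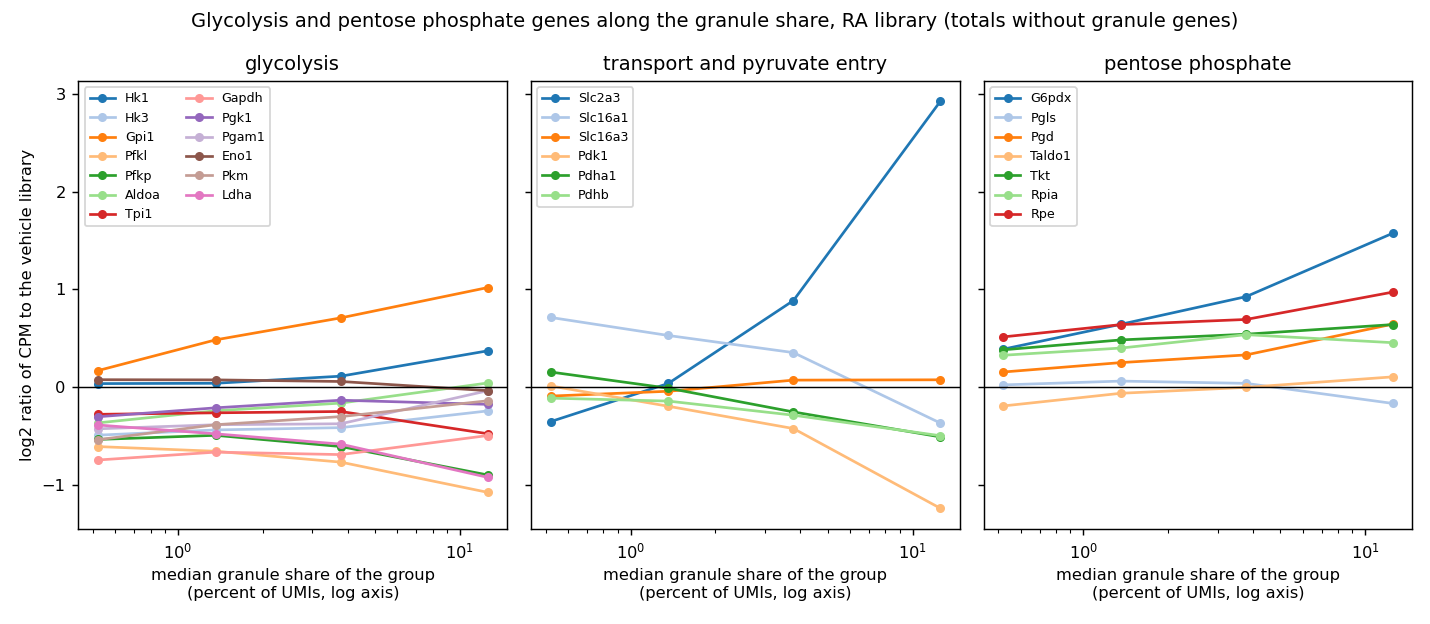
Log2 ratio of CPM to the vehicle library for genes with at least 20 CPM in the highest or lowest group, against the median granule share of the 4 retinoic acid groups on a log axis, with granule genes left out of all totals. Slc2a3, G6pdx and Gpi1 climb most, Slc16a1 and Pdk1 cross below 0, and Gapdh and Pfkl stay below 0 in every group.

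Within a phase the order of the groups was kept for both sums. Summed glycolysis was at 6145 and 7526 CPM in G1 cells of the lowest and highest groups, at 6491 and 7662 CPM in S cells and at 5766 and 6423 CPM in G2/M cells. Summed pentose phosphate was at 2706 and 3138 CPM among G1 cells, 2591 and 3032 among S cells and 2462 and 2865 among G2/M cells.

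**Figure D5:**
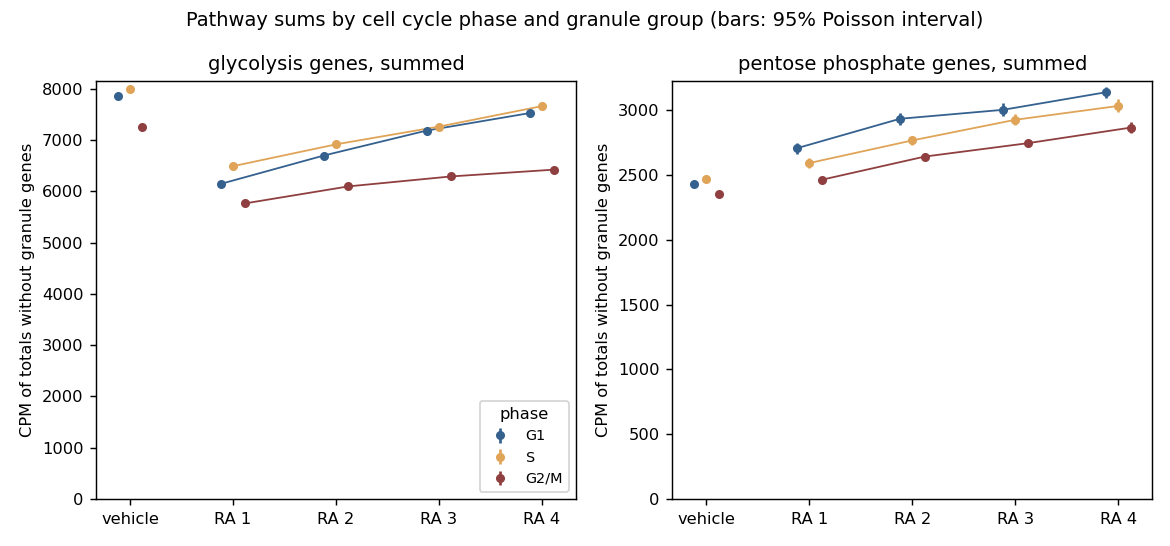
Summed CPM of glycolysis genes (left) and pentose phosphate genes (right) by called phase in the vehicle library and in the 4 retinoic acid granule groups, with 95% Poisson intervals and axes from 0. In each phase the sums are higher at each step of granule share, and G2/M cells are lowest for both pathways.

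Among the isoenzyme shares, those of the transporters differed most along the granule share. Slc2a3 held 30.1% (27.1 to 33.2) of its pair in the lowest group, 37.8% and 53.9% in the middle groups and 83.1% (81.2 to 84.8) in the highest, a difference of 53.0 percentage points (49.4 to 56.4) between the ends. Slc16a1 held 33.6%, 30.1%, 26.0% and 17.6% of its pair, so its share went down as that of Slc16a3 went up. Hk3 held between 63.8% and 65.2% of hexokinase UMIs in all 4 groups, close to the 64.4% of the whole library. Pfkl held 48.8% and 45.8% of phosphofructokinase UMIs in the lowest and highest groups, a difference of −2.97 percentage points (−5.70 to −0.24) that was 1.15 points with 8 groups.

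The lowest granule group was also set beside the vehicle library, with granule genes left out of both totals. Of 27 genes at 20 CPM, 1 was at least 1.5-fold higher, Slc16a1 (log2 ratio 0.71), where 7.21% of all genes passed that fold, and 3 were at least 1.5-fold lower, Pfkl (−0.61), Aldoc (−1.79) and Gapdh (−0.75), where 7.76% did. Their median log2 ratio was −0.09 beside 0.11 over all genes. Summed glycolysis differed by −0.34 (−0.34 to −0.33) and summed pentose phosphate by 0.08 (0.07 to 0.10). Slc2a3 was lower there (−0.35), Gpi1 was 0.17 and G6pdx 0.39 higher, and Ldha was at −0.39. This comparison and that of the highest with the lowest group share the lowest group's cells, so their ratios are not independent.

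Vehicle cells ranked in the same way had far smaller shares, with medians of 0.02%, 0.06%, 0.12% and 0.22%, and G1 cells made up 50.1% of their lowest and 61.8% of their highest group. Gpi1 was at 617, 667, 721 and 906 CPM across their 4 groups, a log2 ratio of 0.56 (0.52 to 0.59), just under 1.5-fold. Aldoc, at 26.8 CPM in the lowest and 42.5 CPM in the highest vehicle group (0.66, 0.52 to 0.81), was the 1 gene of the set at least 1.5-fold higher, where 2.1% of all genes passed that fold, and 0 were lower, where 0.559% passed. G6pdx was at 41.2 and 53.9 CPM (0.39), Ldha at 1049 and 1007 CPM (−0.06), Slc16a1 at 25.7 and 20.2 CPM (−0.35), and Slc2a3 at 11.6 and 10.9 CPM (−0.09, −0.34 to 0.16).

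The neighbouring genes of these pathways were read from lists that hold none of the 32 genes. Of 29 other glycolysis and glycogen genes 11 had at least 20 CPM, with a median log2 ratio of 0.71 between the libraries beside 0.01 over all genes, and 6 were at least 1.5-fold higher (8.15% of all genes) and 1 lower (10.1%). Fbp1, the gluconeogenic fructose 1,6-bisphosphatase, was at 25.5 CPM under vehicle and 149.9 CPM under retinoic acid (2.55, 2.49 to 2.61). Adpgk, an ADP-dependent glucokinase, was at 22.1 and 52.5 CPM (1.25), and Pygl, a glycogen phosphorylase, at 52.5 and 120 CPM (1.19). Pgm2 and Ugp2, which act on sugar phosphates, had ratios of 0.79 and 0.71, while G6pc3, a glucose 6-phosphatase, was at 98.1 and 55.3 CPM (−0.83).

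Along granule share these neighbours parted. Adpgk was at 25.8, 34.3, 49.5 and 144 CPM in the 4 groups (log2 ratio 2.47) and Pygl at 65.7, 81.9, 124 and 291 CPM (2.14). Fbp1 was at 152, 167, 160 and 142 CPM (−0.10), so it was far above the 25.6 CPM of the vehicle already in the lowest group. G6pc3 was at 71.6, 63.9, 52.4 and 30.0 CPM (−1.25).

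Of 14 citric acid cycle genes, all at 20 CPM, 13 were lower in the retinoic acid library. Their median was −0.21, within the all-gene quartiles of −0.25 and 0.24, and the share of all genes that were lower is not given. Dlst (70.2 and 39.9 CPM) was the 1 gene at least 1.5-fold lower, where 10.1% of all genes were. In the granule comparison 13 of the 14 were lower in the highest group, with a median of −0.48 beside −0.18 over all genes, whose lower quartile was −0.48. Of 5 measured genes of a list of 12 for pyruvate entry, Mpc2, a subunit of the mitochondrial pyruvate carrier, was at 118 and 227 CPM (0.95), while its partner Mpc1 was at 482 and 501 CPM (0.06). Both measured genes of 6 in the other pentose phosphate list, Prps1 and Prps2, which make phosphoribosyl pyrophosphate, had ratios of 0.11 and 0.21.

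In the hypoxia and regulator list 11 of 16 genes had at least 20 CPM, with a median of −0.29, and 4 were at least 2-fold lower, where 5.05% of all genes were. Bnip3, a mitophagy receptor and known hypoxia target, was at 92.1 and 22.3 CPM (−2.04). Egln3, an oxygen-sensing prolyl hydroxylase, was at 65.0 and 21.1 CPM (−1.62), Ndrg1 at 47.5 and 21.7 CPM (−1.13), and P4ha1, a collagen prolyl hydroxylase, at 25.5 and 11.8 CPM (−1.11). Vegfa, a further hypoxia target, was in the opposite direction at 16.5 and 24.96 CPM (0.60). Hif1a itself was at 75.2 and 57.5 CPM (−0.39), and Myc, which activates many glycolysis genes, at 119 and 116 CPM (−0.04).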

How the data were processed

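Polyadenylated RNA of sorted promyelocytes was measured in 2 libraries, vehicle and retinoic acid, grouped by the treatment in the labels. The deposited matrices hold unnormalised UMI counts, and per the file headers Cell Ranger 4.0.0 wrote them; the builds named are mm10 and GRCm38.p4 per the submitters' processing notes. How cells were told from empty droplets, and the gene annotation, are not given in the sources used here. Both matrices list 32285 genes, and 32158 identifiers matched GENCODE M21, from which gene positions on GRCm38 were taken. Upstream windows came from RefSeq.

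Cells with at least 1000 UMIs, at least 500 genes and at most 10% mitochondrial UMIs were kept, which removed 310 vehicle and 276 retinoic acid barcodes. Median depths were 16750 and 14604 UMIs per cell. Doublets were not called, and an alternative removed the deepest 5% of cells. For granule shares and phases, cells were thinned to 5000 UMIs, leaving out 194 vehicle and 481 retinoic acid cells, and phases were scored with scanpy 1.11.5 on both libraries together from 42 S and 52 G2/M genes. Counts were summed per library, phase or granule group and given as CPM with exact intervals from scipy 1.17.1. TMM factors came from edgeR 4.0.16 as an alternative scaling of the counts, with no test. With 1 library per group no test was possible, and no p-value is given.

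Values are given for every gene of the set at 20 CPM in either library, and genes of the other lists are named where they reach 20 CPM and differ at least 1.5-fold or where a sentence needs their level, except 1 gene that is not reported here. The genes and lists were chosen with earlier results of these data known. The ratio calculation was tested on simulated data. Alternatives changed the cell filters, the weight of cells, the scaling, the level limit, the phase mix, the thinning depth, the number of granule groups and the granule list.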

Additional observations from a re-analysis of the deposited data

How the results depend on the processing

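No paired analysis was possible because both treatments had just 1 library. For counting depth, genes under 20 CPM such as Ldhb and Eno3 limit what can be said, and no alternative replaces a second library. Between the libraries 25 of 28 genes kept their sign under all 12 alternatives (not Eno1, Slc16a3 and Pgls), and between the granule groups 22 of 26 under all 11 (not Pgk1, Eno1, Slc16a3 and Rpia). The shares of all genes that kept their sign are not given, so these counts are not read as a trait of the set. The removals of cells with a Cpa3 UMI, with Prg2 or Epx UMIs, or with at most 0.1% mitochondrial UMIs were chosen after seeing the data. The Cpa3 removal was one-sided, since treated cells held just 11 of these UMIs beside 56477 for vehicle cells. The cause of the changes below was not tested, unless a setting by construction leaves fewer genes or cells.

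Of the genes at least 1.5-fold apart between the libraries, a limit of 100 CPM left 0 higher and 3 lower, and TMM scaling left 3 lower. No all-gene share is given for these settings. The median log2 ratio was −0.063 with TMM scaling, −0.27 at 100 CPM, and −0.26 at 5 CPM and without a limit. The ratio of summed glycolysis was −0.20 with TMM scaling, −0.23 without granule genes in the totals, −0.29 without cells holding a Cpa3 UMI and −0.29 at a mitochondrial limit of 5%. That of summed pentose phosphate was 0.22 with TMM scaling, 0.20 without granule genes in the totals, 0.0998 without cells holding a Cpa3 UMI and 0.16 at the vehicle phase shares.

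For isoenzyme shares between the libraries, removing cells with a Cpa3 UMI gave −28.3 percentage points for Slc2a1, 8.22 for Hk1, 3.57 for Slc16a1, 1.29 for Aldoa, 0.65 for Eno1 and −3.80 for Pfkl. Equal weight for every cell gave −26.1 for Slc2a1 and 1.89 for Aldoa, and the vehicle phase shares gave −27.8 for Slc2a1 and 4.47 for Slc16a1.

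Between the granule groups, 6 genes were at least 1.5-fold higher in G1 cells and with S100a8 and S100a9 in the granule list. At least 1.5-fold lower were 6 with 8 groups, 5 in G1 cells, 5 with the granule genes kept in the totals and 0 at 100 CPM. All-gene shares are given above only for G1 cells and for the granule genes kept. The median was 0.023 with the granule genes kept and 0.35 with S100a8 and S100a9. Summed glycolysis was 0.32 with 8 groups, 0.29 in G1 cells, 0.069 with the granule genes kept, 0.41 with S100a8 and S100a9, 0.27 without Camp and 0.21 at the phase shares of the lowest group. Summed pentose phosphate was 0.30 with 8 groups, 0.21 in G1 cells, 0.061 with the granule genes kept, 0.38 with S100a8 and S100a9 and 0.22 at the phase shares of the lowest group.

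Shares between the ends of the granule groups were −62.1 percentage points for Slc2a1 with 8 groups and −62.6 in G1 cells, −22.1 and −22.5 for Slc16a1, and −0.76 for Hk1 in G1 cells and −0.52 with S100a8 and S100a9. The Pfkl share changed sign with 8 groups, to 1.15 percentage points.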
